A study of Mus musculus with 3 samples.

Results

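The fatty acid oxidation and ketone genes described here are 35 mouse genes that were chosen by symbol, and all 35 were found among the 31253 genes of each matrix. They comprise 6 genes of fatty acid activation, 5 of transfer on carnitine, 4 of the first dehydrogenation, 4 of the later mitochondrial steps, 2 peroxisomal genes, 3 genes for unsaturated fatty acids, 3 of electron transfer, 5 regulators and 3 ketone genes. The study sequenced single cells of the arcuate nucleus, a feeding centre of the hypothalamus, from male C57BL/6JRj mice labelled as 5 to 6 weeks old. Mice of the 5-day group were weaned onto standard chow (SC) for 10 days and spent the following 5 days on food rich in fat and sugar (HFHS), mice of the 15-day group ate HFHS food for 15 days from weaning, and the control mice stayed on SC for the same 15 days. Tissue punches of 6 mice of a diet were pooled and dissociated with enzymes into 1 library, so there are 3 libraries in all. The series' text adds 58% to the name of the HFHS diet without saying what it refers to.

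Fatty acids are burned in mitochondria after they have been joined to coenzyme A by acyl-CoA synthetases. Long chains then enter the mitochondrion on carnitine, and repeated rounds of dehydrogenation, hydration, a second dehydrogenation and thiolysis release acetyl-CoA. The electrons pass through the electron transfer flavoprotein to the respiratory chain. Ketone bodies are made from acetyl-CoA, mainly in liver, and are used by other tissues through Bdh1, Oxct1 and Acat1. In the brain, astrocytes are known as the main site of fatty acid oxidation, neurons are known for low use of fatty acids as fuel, and the arcuate nucleus is a place where fatty acids and ketone bodies are sensed.

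After filtering, 4041 cells of the 5-day, 5157 cells of the 15-day and 4825 cells of the SC library remained, with a median of 5779, 4130 and 5131 unique molecular identifiers (UMIs) per cell. A UMI marks a captured transcript molecule, read here at the 3' end, so its count does not grow with transcript length. Cells were clustered without the 35 genes, and clusters were called X-like from marker genes. The 4 classes described first held 803 astrocyte-like cells in the 5-day, 1252 in the 15-day and 783 in the SC library. There were 254, 355 and 366 tanycyte-like, 360, 372 and 362 endothelial-like and 282, 396 and 358 neuron-like cells in the same order. No marker of its own list was at 0 UMIs in all 3 libraries in any of these classes. The same held for many lists of other classes, and the clusters were named from these markers. It therefore does not tell the classes apart. A further 5 classes had at least 100 cells in each library, namely oligodendrocyte precursor (OPC)-like, ependymal-like, microglia-like, oligodendrocyte-like and pericyte-like cells. Levels are CPM, the UMIs of a gene per 1000000 UMIs of a class in a library, summed over its cells. Nothing was replicated within a diet. The 5-day and SC libraries shared 13 cell barcodes, the 15-day and SC libraries 72 and the 5-day and 15-day libraries 85. Some of them held many UMIs. Leaving them out took 5-day tanycyte-like cells from 254 to 239 and their UMIs from 6396822 to 5071145. In 5-day astrocyte-like cells it took 803 cells to 799 and 3794265 UMIs to 3782835. Markers of other classes were present in every class, and not always at a low level. In tanycyte-like cells of the 5-day, 15-day and SC libraries the summed astrocyte markers were at 5265, 4528 and 5245 CPM. The tanycyte markers were at 5188, 4994 and 5104.5 CPM in the same cells. Ependymal-like cells had 5668, 5392 and 5996 CPM of astrocyte markers. How much of this came from other cells was not tested. The summed astrocyte markers of neuron-like cells stood at 2.12%, 1.81% and 2.7% of their level in astrocyte-like cells in the 5-day, 15-day and SC libraries.

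The first question was how the pathway differed between cell classes. As a sum, the 35 genes took 4890 CPM in astrocyte-like, 2478 CPM in tanycyte-like, 2339 CPM in endothelial-like and 1317 CPM in neuron-like cells of the SC library. Each pair of classes was compared over the 3 libraries with edgeR's quasi-likelihood test, with the library as a block and Benjamini-Hochberg adjustment over all genes tested, and a gene was called at an adjusted p under 0.05. The p-values set a class difference against variation between these 3 pooled libraries, which also differed in diet. That variation was estimated with information shared between genes, not from each gene alone. In tanycyte-like over astrocyte-like cells the standard errors of Acadl, Hadha, Acadm and Oxct1 were 0.1111, 0.1113, 0.1135 and 0.1157. That of Ppara was larger, at 0.3504. Very small p-values therefore do not measure a gene's own spread, and their sizes were not compared between pairs. Between astrocyte-like and neuron-like cells all 35 genes passed the filter on low counts, and 30 were higher and 4 lower in astrocyte-like cells. Over all genes tested in that pair, 36.6% were higher and 36.5% lower. The median log2 fold change was 1.78 over the 35 genes and 0.02 over all genes.

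Against neuron-like cells, the other 2 classes also had more members higher than lower. In tanycyte-like cells 24 of 33 tested members were higher and 6 lower, while 37.5% of all genes tested were higher and 38.1% lower. In endothelial-like cells 22 of 34 were higher and 7 lower, with 37.5% and 39.4% over all genes. The medians were 1.13 and 1.4 on the log2 scale, against 0.01 and -0.03 over all genes. Ppara did not pass the filter in either pair, and Pdk4 did not pass it between tanycyte-like and neuron-like cells.

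Among the 3 non-neuronal classes the members were split. Tanycyte-like cells had 9 members higher and 18 lower than astrocyte-like cells, where 38.9% of all genes were higher and 40.1% lower. Endothelial-like cells had 14 higher and 13 lower than astrocyte-like cells, against 39.1% and 40.2%, and 13 higher and 14 lower than tanycyte-like cells, against 38.3% and 40.1%. All members were tested in the first pair and in the second, and 34 in the third. Of the 4 classes, astrocyte-like cells had the highest level in all 3 libraries for 11 genes, endothelial-like cells for 7, tanycyte-like cells for 5 and neuron-like cells for 4. For the other 8 genes the class with the highest level differed between libraries.

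**Figure D1:**
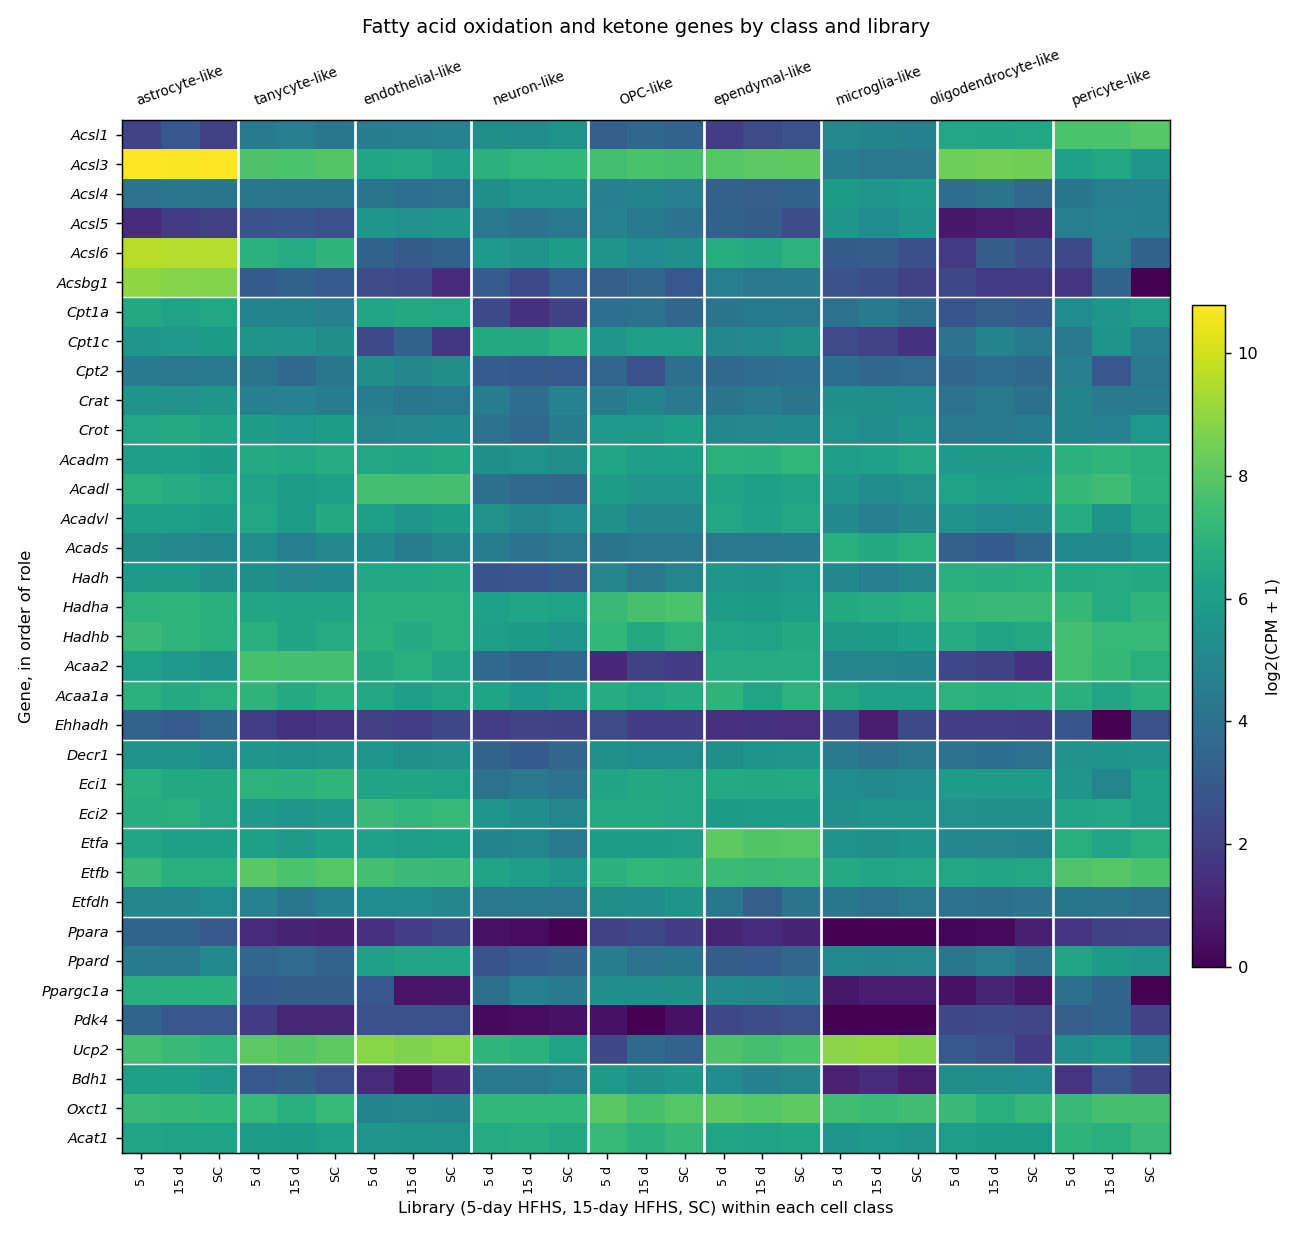
Level of each of the 35 genes, as log2(CPM + 1), in 9 classes and 3 libraries; rows are ordered by role and columns within a class run 5-day HFHS, 15-day HFHS, SC. The synthetase genes Acsl3, Acsl6 and Acsbg1 form the brightest block, in astrocyte-like cells, and within a row the classes differ more than the libraries of 1 class.

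Activation of fatty acids was split between synthetase genes by class. Acsl3, a synthetase of the endoplasmic reticulum and lipid droplets, was at 1746 CPM in the 5-day, 1675 CPM in the 15-day and 1746 CPM in the SC library in astrocyte-like cells. In neuron-like cells it was at 119, 136 and 139 CPM, and the log2 fold change of astrocyte-like over neuron-like cells was 4.05 ± 0.18 (SE; edgeR adjusted p = 3.24e-13). The groups did not overlap. Acsl3 shares exon sequence with Utp14b on the same strand, so reads of that stretch cannot be assigned with certainty.

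Acsl6, a synthetase of brain known for its use of docosahexaenoic acid, was at 781, 768 and 767 CPM in astrocyte-like cells of the 5-day, 15-day and SC libraries. In tanycyte-like cells it was at 118, 97.4 and 126 CPM, in neuron-like cells at 53.6, 46.4 and 59.8 CPM and in endothelial-like cells at 9.06, 7.24 and 9.23 CPM. Every step in this order was larger than the spread between libraries. The part of other cells' transcripts in the tanycyte-like level was not tested. Acsbg1, a synthetase of very long chains, was at 488, 448 and 431 CPM in astrocyte-like cells and at 7.62, 4.42 and 8.21 CPM in neuron-like cells (log2 fold change 6.40 ± 0.20, adjusted p = 1.87e-14). The neuron-like level was 1.56%, 0.986% and 1.9% of the astrocyte-like level in the 5-day, 15-day and SC libraries, no more than the share of the summed astrocyte markers given above. The part of background in it was not tested.

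The other 3 synthetase genes went the other way. Acsl1, the main synthetase of fat, heart and liver, was at 3.69, 6.84 and 3.12 CPM in astrocyte-like cells and 39.7, 38.1 and 44.2 CPM in neuron-like cells (log2 fold change -2.78 ± 0.22, adjusted p = 1.17e-09). It reached 212, 207 and 246 CPM in pericyte-like cells. Acsl4, which prefers arachidonic acid and is known from ferroptosis, was lower in each of the 3 other classes than in neuron-like cells, by -1.12 in astrocyte-like, -1.06 in tanycyte-like and -1.09 in endothelial-like cells on the log2 scale. Acsl5, a synthetase of mitochondria and endoplasmic reticulum, was at 48.7, 43 and 48.4 CPM in endothelial-like cells and at 1.58, 2.63 and 3.12 CPM in astrocyte-like cells (log2 fold change 4.49 ± 0.22, adjusted p = 1.2e-16). Astrocyte-like cells thus held the highest levels of 3 of the 6 synthetase genes and the lowest of Acsl1 and Acsl5 among the 4 classes in every library.

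Among the carnitine genes, Cpt1a and Cpt1c differed in which classes they marked. Cpt1a encodes the carnitine palmitoyltransferase of the outer mitochondrial membrane that is known as the rate-limiting entry of long chains. It was at 88.8, 72.6 and 83.2 CPM in astrocyte-like cells of the 5-day, 15-day and SC libraries and at 81.3, 91.7 and 84.6 CPM in endothelial-like cells. Tanycyte-like cells had 28.0, 27.7 and 24.7 CPM and neuron-like cells 4.26, 1.94 and 3.19 CPM. The log2 fold change over neuron-like cells was 5.02 ± 0.18 in astrocyte-like (adjusted p = 3.99e-14), 5.22 ± 0.22 in endothelial-like (9.57e-13) and 3.45 ± 0.22 in tanycyte-like cells (4.6e-10). The neuron-like level was 4.79%, 2.66% and 3.84% of the astrocyte-like level in the 5-day, 15-day and SC libraries, beside 2.12%, 1.81% and 2.7% for the summed astrocyte markers, so the part of background in it was not separated. Levels of astrocyte-like and endothelial-like cells overlapped. Their called difference (log2 fold change 0.28) was lost with DESeq2 at an adjusted p of 0.189 and without the 15-day library at 0.36.

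Cpt1c, the neuronal relative that is located in the endoplasmic reticulum and known for little transferase activity, was highest in neuron-like and lowest in endothelial-like cells. Endothelial-like cells had 4.25, 9.17 and 2.31 CPM and neuron-like cells 91.2, 90.7 and 116 CPM, with a log2 fold change of endothelial-like over neuron-like cells of -3.91 ± 0.26 (adjusted p = 2.98e-10). Tanycyte-like cells had 47.1, 45.2 and 39.0 CPM and astrocyte-like cells 49.8, 56.3 and 58.2 CPM. These 2 classes were not called as different (log2 fold change -0.21, adjusted p = 0.079). Cpt1c was the only one of the 35 genes with its highest level among all 9 classes in neuron-like cells in each library. The clusters of that class differed, with 153, 140 and 147 CPM in the largest cluster, led by Snhg11, Meg3 and Rasgrf2, and 34.7, 43.1 and 36.0 CPM in the cluster led by Agrp, Npy and Otp, below the astrocyte-like levels. The cluster led by Cartpt, Gal and Pomc was at 56.8, 70.3 and 56.6 CPM.

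The promoters of Cpt1a, Cpt1c and Acsl6 are shown because these genes differed strongly between classes and their promoters hold the half-site of nuclear receptors, AGGTCA or TGACCT on the other strand. Each sequence runs 5′ to 3′ on the strand of its gene, from 250 bases before to 50 bases after the RefSeq start, with the half-site in capitals (RefSeq, build GRCm38.p6). Cpt1a lies at chr19:3323051-3323350 on the plus strand, Acsl6 at chr11:54303574-54303873 on the plus strand and Cpt1c at chr7:44974802-44975101 on the minus strand.
Cpt1a: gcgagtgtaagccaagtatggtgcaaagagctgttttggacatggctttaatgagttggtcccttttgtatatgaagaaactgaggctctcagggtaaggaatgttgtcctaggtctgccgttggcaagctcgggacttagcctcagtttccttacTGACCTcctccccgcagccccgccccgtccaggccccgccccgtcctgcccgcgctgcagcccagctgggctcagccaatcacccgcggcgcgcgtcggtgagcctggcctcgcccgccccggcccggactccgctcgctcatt
Cpt1c: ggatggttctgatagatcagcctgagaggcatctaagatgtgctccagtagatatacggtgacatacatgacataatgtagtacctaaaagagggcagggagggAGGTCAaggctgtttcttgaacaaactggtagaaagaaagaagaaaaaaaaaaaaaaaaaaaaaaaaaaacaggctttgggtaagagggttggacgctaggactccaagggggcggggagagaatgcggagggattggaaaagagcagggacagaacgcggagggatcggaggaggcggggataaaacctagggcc
Acsl6: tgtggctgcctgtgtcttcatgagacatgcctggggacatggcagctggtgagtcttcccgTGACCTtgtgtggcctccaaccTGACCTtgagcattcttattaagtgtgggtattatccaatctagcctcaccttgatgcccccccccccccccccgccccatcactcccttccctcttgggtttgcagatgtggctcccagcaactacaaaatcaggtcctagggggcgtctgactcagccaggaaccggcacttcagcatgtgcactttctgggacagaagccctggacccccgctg

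RefSeq promoters were matched by symbol for 31 of the 35 genes, 35 promoters in all. The half-site AGGTCA, searched on both strands, was in 14.3% of them and in 16.3% of all 32851 promoters of the same length. It stood in the promoters of Acadm, Acadvl, Acsl6, Cpt1a and Cpt1c. The longer match AGGTCANAGGTCA, which holds 2 half-sites and is known from PPAR and RXR binding, was in none of the 35 and in 13 of all promoters. TCAAGGTCA, known from estrogen-related receptors and containing the half-site, was in the Acsl6 promoter (2.86%, against 0.423% of all). GCGCATGCGC, known from NRF1, was in those of Etfdh and Ppara (5.71%, against 0.971%).

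Of the remaining carnitine genes, Cpt2 and Crot were higher in all 3 other classes than in neuron-like cells, and Crat was not. Cpt2, which returns acyl groups from carnitine to coenzyme A inside the mitochondrion, was highest of the 9 classes in endothelial-like cells, at 39.1, 30.4 and 38.4 CPM, against 7.84, 7.19 and 6.84 CPM in neuron-like cells (log2 fold change 2.80 ± 0.19, adjusted p = 4.27e-10). Crat and Crot, the acetyl- and octanoyltransferases, were highest in astrocyte-like cells. Crat was at 46.9, 42.1 and 49.99 CPM there and 22.6, 13.5 and 26.5 CPM in neuron-like cells (log2 fold change 1.51 ± 0.15, edgeR adjusted p = 2.72e-08). It was not called in endothelial-like over neuron-like cells (log2 fold change 0.40, adjusted p = 0.0577), and its call in tanycyte-like over neuron-like cells (0.60, adjusted p = 0.00585) was lost with DESeq2 (0.0596) and without the 15-day library (0.075). Crot was at 86.2, 93.9 and 76.9 CPM there and 15.2, 12.2 and 21.7 CPM in neuron-like cells (log2 fold change 2.73 ± 0.16, adjusted p = 1.76e-11). Crot overlaps an exon of Gm27941 on the same strand.

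The 4 acyl-CoA dehydrogenase genes of the first step were all higher in each of the 3 other classes than in neuron-like cells. Acadl, the long-chain enzyme, was at 184, 183 and 194 CPM in endothelial-like and 116, 102 and 83.6 CPM in astrocyte-like cells, against 14.8, 11.9 and 10.7 CPM in neuron-like cells. Its log2 fold change over neuron-like cells was 4.40 ± 0.19 in endothelial-like and 3.34 ± 0.14 in astrocyte-like cells (adjusted p = 1.24e-12 and 2.31e-13). Acadm, the medium-chain enzyme, and Acadvl, the very-long-chain enzyme, differed less, with log2 fold changes over neuron-like cells of 0.92 to 1.59 and of 1.16 to 1.5 in the 3 classes. Acads, the short-chain enzyme, was at 106, 89.1 and 111 CPM in microglia-like cells and between 24.3 and 39.0 CPM in astrocyte-like, tanycyte-like and endothelial-like cells.

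In the later mitochondrial steps Hadh and Acaa2 differed most between classes. Hadh, the short-chain 3-hydroxyacyl-CoA dehydrogenase, was at 83.6, 87.4 and 93.8 CPM in endothelial-like and 6.05, 6.08 and 7.07 CPM in neuron-like cells (log2 fold change 4.27 ± 0.17, adjusted p = 8.07e-13), and at 111, 105 and 111 CPM in oligodendrocyte-like cells. Acaa2, the last enzyme of the cycle, was highest in tanycyte-like cells, at 195, 185 and 189 CPM. A cluster of 565 cells led by Rspo3, Tgfb2 and Necab2, which stayed unnamed here and was named tanycyte-like when all variable genes were used, had 113, 104 and 116 CPM. In the named tanycyte-like class the log2 fold change of Acaa2 was 4.51 ± 0.18 over neuron-like and 1.84 ± 0.12 over astrocyte-like cells (adjusted p = 2.08e-12 and 1.19e-36). In OPC-like cells it was at 1.37, 3.38 and 2.71 CPM and in oligodendrocyte-like cells at 3.90, 3.38 and 2.00 CPM. The mitochondrial thiolase thus had a wide range over classes, while Hadha and Hadhb, the subunits of the trifunctional protein for long chains, had a narrow one. Hadha was between 57.3 CPM in ependymal-like and 208 CPM in OPC-like cells. Hadhb shares 46.3% of the sequence words of its last 500 bases with Gm13910.

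Of the peroxisomal genes, Acaa1a, a thiolase, was between 54.5 and 127 CPM in all 9 classes. Its last 500 bases share 31.4% of their words with its paralog Acaa1b. Ehhadh, the bifunctional enzyme, was at 9.75, 7.63 and 11.3 CPM in astrocyte-like cells and at most 3.84 CPM in the 3 other classes of the first comparison. Genes for unsaturated fatty acids were low in neuron-like cells. Eci1, an enoyl-CoA isomerase, was at 125, 120 and 130 CPM in tanycyte-like and 15.7, 18.5 and 15.7 CPM in neuron-like cells (log2 fold change 3.30 ± 0.16, adjusted p = 1.78e-11). Eci2, an isomerase of peroxisomes and mitochondria, was at 152, 136 and 147 CPM in endothelial-like and 48.2, 38.4 and 29.0 CPM in neuron-like cells. Decr1, the dienoyl-CoA reductase, differed by 2.50 to 2.76 on the log2 scale between the 3 classes and neuron-like cells.

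The electron transfer genes were higher in all 3 classes than in neuron-like cells, by 1.29 to 2.28 on the log2 scale for Etfb and 1.72 to 1.88 for Etfa, the subunits of the electron transfer flavoprotein. Etfa was at 272, 228 and 244 CPM in ependymal-like cells and at most 108 CPM in any other class. Etfb was highest of the 4 classes in tanycyte-like cells, at 256, 209 and 242 CPM, and overlaps exons of Gm45233 and Mir7051, so its level is uncertain. Etfdh, the oxidoreductase that passes the electrons to ubiquinone, differed from neuron-like cells by 0.72 to 1.38.

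The regulators marked different classes. Ppara, the fatty acid receptor that drives oxidation genes in liver, was low everywhere, with 10.0, 10.0 and 7.03 CPM in astrocyte-like cells. Neuron-like cells held 2, 1 and 0 UMIs of it in the 5-day, 15-day and SC libraries, where 0 UMIs allow up to 0.684 CPM. Microglia-like cells held none in any library, which allows up to 0.959, 0.835 and 0.824 CPM. Ppard, its relative, was highest of the 4 classes in endothelial-like cells, at 70.0, 79.2 and 83.0 CPM, against 20.3, 19.2 and 33.2 CPM in astrocyte-like cells (log2 fold change 1.92 ± 0.14, adjusted p = 8.84e-13). The pair of receptors thus had opposite orders in these 2 classes. For Ppara (log2 fold change -1.41, edgeR adjusted p = 0.00125) the difference was lost without the 5-day library (adjusted p = 0.0605).

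Ppargc1a, a coactivator of mitochondrial genes, was at 108, 113 and 106 CPM in astrocyte-like, 14.6, 24.0 and 20.8 CPM in neuron-like and 7.19, 8.04 and 8.16 CPM in tanycyte-like cells. Its log2 fold change was 2.82 ± 0.15 for astrocyte-like over neuron-like cells (adjusted p = 6.25e-12) and -3.69 ± 0.13 for tanycyte-like over astrocyte-like cells (6.4e-82). Endothelial-like cells held 24, 1 and 2 UMIs in the 5-day, 15-day and SC libraries. Pdk4, a kinase that shuts off pyruvate dehydrogenase, was at 10.0, 6.58 and 6.64 CPM in astrocyte-like cells, and neuron-like cells held 1, 1 and 2 UMIs. Ucp2, a carrier of the inner mitochondrial membrane, was at 461, 410 and 461 CPM in endothelial-like and 473, 501 and 436 CPM in microglia-like cells. It was at 131, 117 and 75.3 CPM in neuron-like cells and 185, 157 and 134 CPM in astrocyte-like cells.

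The ketone genes were the group in which endothelial-like cells stood low. All 3 were lower there than in each of the 3 other classes, although Acat1 was called against astrocyte-like and tanycyte-like cells in some of the alternatives only. Bdh1, which interconverts the ketone bodies, was at 68.3, 66.8 and 56.2 CPM in astrocyte-like and 19.7, 19.1 and 23.9 CPM in neuron-like cells (log2 fold change 1.94 ± 0.14, adjusted p = 3.46e-10). Endothelial-like cells held 5, 1 and 5 UMIs. Oxct1, the transferase needed to use ketone bodies, was at 26.9, 28.5 and 27.9 CPM in endothelial-like cells and 158, 143 and 139 CPM in astrocyte-like cells (log2 fold change -2.19 ± 0.13, adjusted p = 5.01e-15). In neuron-like cells it was at 138, 139 and 138 CPM. The call of astrocyte-like over neuron-like cells for Oxct1 (log2 fold change 0.41, adjusted p = 0.00767) was lost with DESeq2 (0.0607), without the 5-day library (0.121) and with at most 10% mitochondrial UMIs (0.725). Acat1, the thiolase that closes ketone use, was the 1 member not called between those classes, at 79.1, 72.1 and 75.8 CPM in astrocyte-like and 98.6, 105 and 89.9 CPM in neuron-like cells. Not every alternative left it uncalled.

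**Figure D2:**
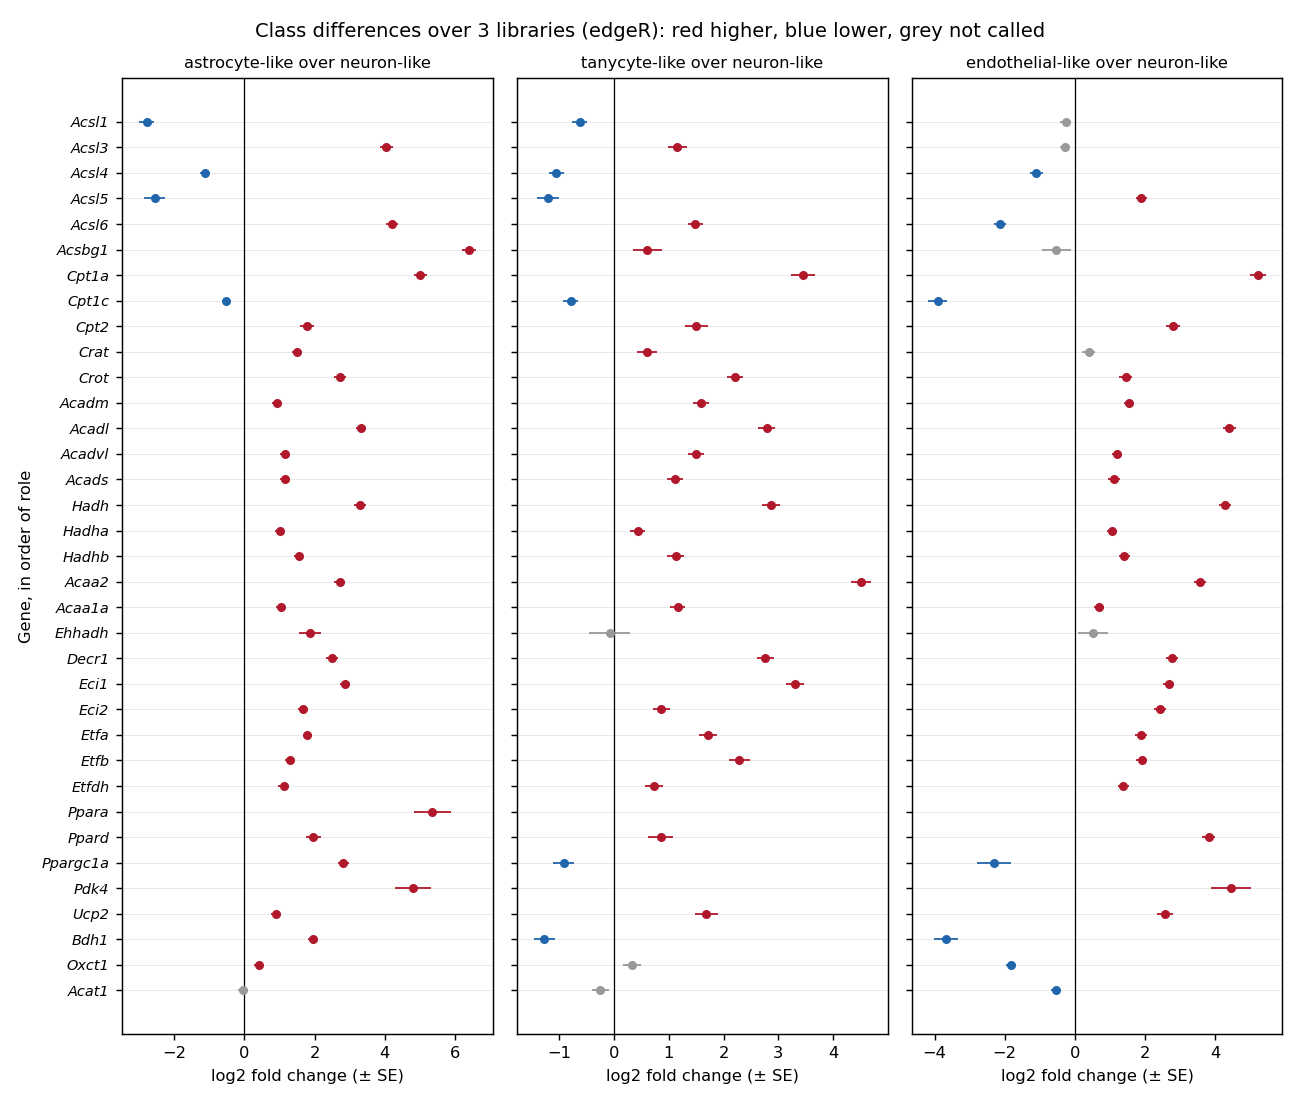
Log2 fold change with its standard error (edgeR, 3 libraries as blocks) for each of the 35 genes in astrocyte-like, tanycyte-like and endothelial-like over neuron-like cells; red marks higher, blue lower and grey no call, and genes that did not pass the filter have no point. Most points lie right of 0, and Cpt1c and Acsl4 lie left of it in all 3 panels.

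**Figure D3:**
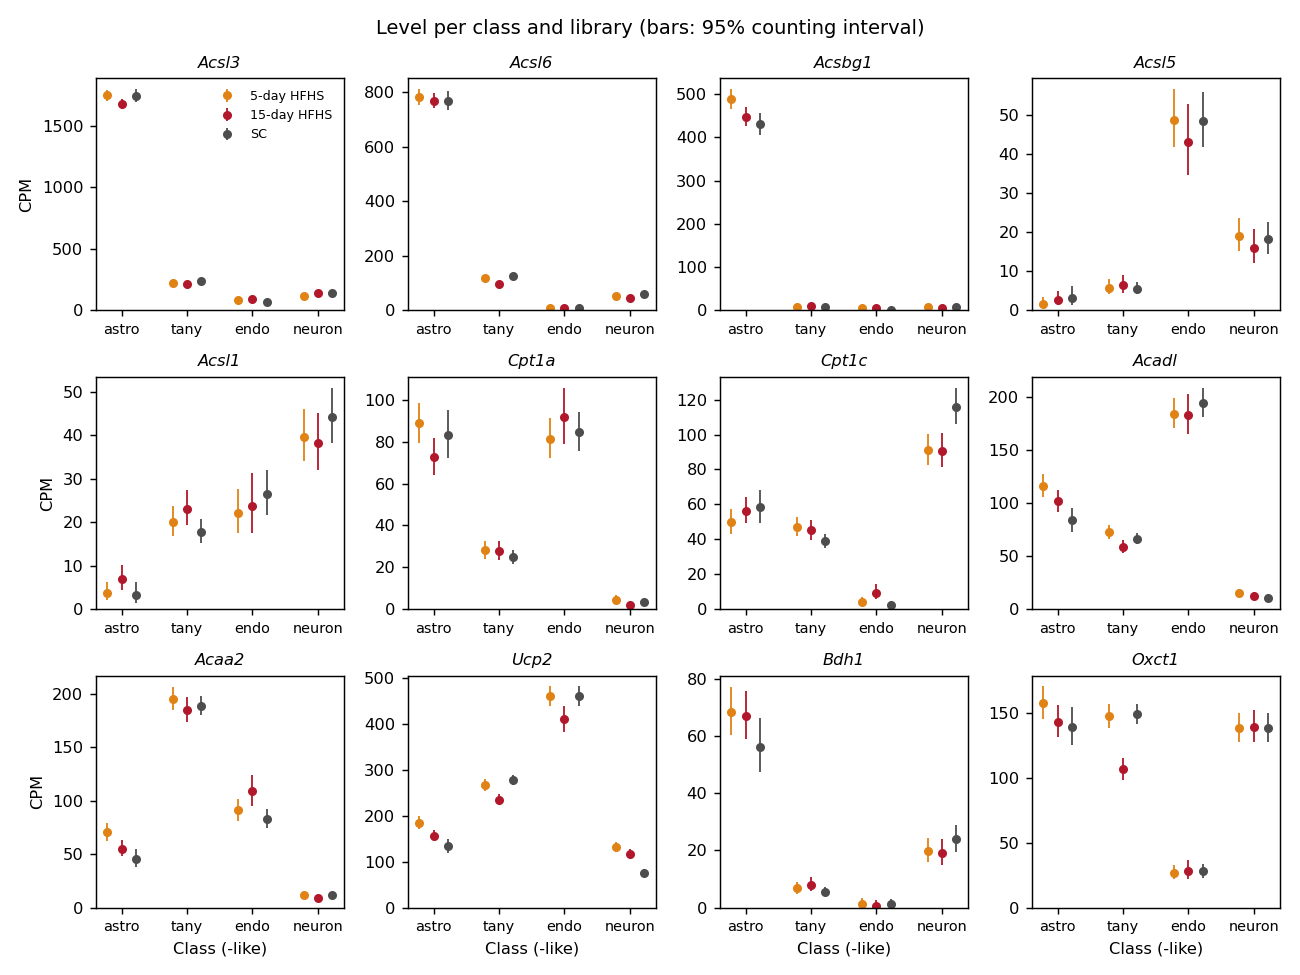
Level in CPM of 12 of the genes in 4 classes and 3 libraries, with exact Poisson intervals for counting error alone; every panel starts at 0. Cpt1a was at 1.94 to 4.26 CPM in neuron-like cells, while Cpt1c was at 90.7 to 116 CPM there, and Oxct1 was near 28 CPM in endothelial-like cells against over 100 CPM in the other 3.

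Respiratory chain genes had another pattern over the classes. Of 32 nuclear genes of the chain, 2 were higher and 14 lower in astrocyte-like than in neuron-like cells (median log2 fold change -0.28), beside 36.6% and 36.5% of all genes. In tanycyte-like cells 21 were higher and 1 lower than in neuron-like cells (median 0.60), beside 37.5% and 38.1% of all genes. In endothelial-like cells 11 were higher and 1 lower (median 0.35), beside 37.5% and 39.4%. The median mitochondrial share of UMIs per cell was 11.1%, 9.87% and 11.4% in astrocyte-like and 8.47%, 7.29% and 12.0% in neuron-like cells.

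Of 52 other genes of fatty acid and ketone metabolism, 32 of 46 tested were higher and 7 lower in astrocyte-like than in neuron-like cells, where 36.6% and 36.5% of all genes were. Acsf2, a mitochondrial synthetase, and Angptl4, an inhibitor of lipoprotein lipase, were the highest (log2 fold changes 5.86 and 5.45), and Slc16a7 and Ppargc1b the lowest (-3.54 and -3.26). Slc16a7 encodes the monocarboxylate carrier MCT2, which takes up lactate and ketone bodies in neurons. It was at 0.791, 0.789 and 1.17 CPM in astrocyte-like and 13, 10.8 and 17.8 CPM in neuron-like cells of the 5-day, 15-day and SC libraries. Over neuron-like cells, 23 of 46 were higher and 11 lower in tanycyte-like cells (37.5% and 38.1% of all genes) and 19 of 45 higher and 15 lower in endothelial-like cells (37.5% and 39.4%). Over astrocyte-like cells, 12 of 45 were higher and 29 lower in tanycyte-like cells (38.9% and 40.1%) and 9 of 44 higher and 26 lower in endothelial-like cells (39.1% and 40.2%). In endothelial-like over tanycyte-like cells 12 of 43 were higher and 22 lower (38.3% and 40.1%).

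Slc16a1, the monocarboxylate carrier MCT1 of the blood-brain barrier, was at 559, 414 and 536 CPM in endothelial-like and 55.1, 56.3 and 65.2 CPM in astrocyte-like cells. Of the 4 classes, endothelial-like cells thus had the highest levels of this carrier and the lowest of the 3 genes of ketone use. Lowest in endothelial-like over astrocyte-like cells were Acss1 and Abcd2 (-6.24 and -5.75), a mitochondrial acetate synthetase and a peroxisomal carrier of acyl-CoA.

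In tanycyte-like cells Bdh2 and Acot1 had the largest differences over neuron-like cells (5.47 and 4.53) and Hmgcll1 and Slc16a7 the lowest (-6.88 and -4.01). Acot1, a thioesterase that releases fatty acids from coenzyme A, was at 175, 116 and 151 CPM in tanycyte-like and 8.52, 6.08 and 10.5 CPM in neuron-like cells. Pdk3 and Hsd17b10 were the highest over astrocyte-like cells (2.62 and 2.21), and Abcd2 and Hmgcll1 the lowest (-5.71 and -4.26). For endothelial-like over neuron-like cells Angptl4 was high (6.25) and Hmgcll1 and Acot7 were the lowest (-4.86 and -3.82). For endothelial-like over tanycyte-like cells Angptl4 was high (5.08) and Bdh2 and Acot1 were the lowest (-5.24 and -4.39).

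Over all 9 classes, astrocyte-like cells had the highest level in each library for 9 genes (Acsl3, Acsl6, Acsbg1, Crat, Crot, Ehhadh, Ppara, Ppargc1a and Bdh1). Endothelial-like cells led for Cpt2, Acadl and Eci2, tanycyte-like cells for Acaa2 and Eci1, OPC-like cells for Hadha and Etfdh and ependymal-like cells for Etfa and Oxct1. Microglia-like cells led for Acsl4 and Acads, pericyte-like cells for Acsl1 and Hadhb, oligodendrocyte-like cells for Hadh and neuron-like cells for Cpt1c. No class led for all genes of any of the roles with more than 2 members.

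The second question was whether the genes differed after 5 or 15 days of the HFHS diet. With 1 library per diet no test was possible, so ratios compare libraries. Their intervals are exact binomial ones at 95%. They hold the error of counting and leave out how mice, pools and cells vary, and both HFHS ratios share the SC library. A gene was measured with at least 50 UMIs in the 2 libraries of a class, and past the size rule with a ratio of at least 1.5 either way and an interval that left out 1.

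In astrocyte-like cells of the 5-day library, 27 of 33 measured members had a higher level than in the SC library and 6 a lower one. Of all measured genes, 43.9% had a ratio above 1. The median log2 ratio was 0.18 over the members and -0.05 over all genes. As a sum, the members took 5313 CPM in the 5-day and 4890 CPM in the SC library (log2 ratio 0.12 [0.09 to 0.15]). With a fixed mix of astrocyte-like clusters this ratio was 0.04. The cluster led by Pla2g7, Agt and Slc7a10 had 5610 CPM of the members in the 5-day and 5475 CPM in the SC library and held 420 of the 803 5-day and 293 of the 783 SC cells. The cluster led by Gm3764, Atp13a4 and Itih3 had 4320 and 4140 CPM in the same 2 libraries.

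Past the size rule, 1 member was higher and 1 lower in 5-day astrocyte-like cells, while 1.65% of all measured genes were higher and 3.76% lower. Acaa2 was at 70.4 CPM in the 5-day and 45.7 CPM in the SC library (log2 ratio 0.62 [0.30 to 0.95]). By cluster the difference was smaller in both large clusters. Acaa2 was at 76.1 and 53.4 CPM in the cluster led by Pla2g7, and at 37.3 and 34.6 CPM in the cluster led by Gm3764. Ppard was at 20.3 CPM in the 5-day and 33.2 CPM in the SC library (-0.71 [-1.17 to -0.25]). In the 15-day library Ppard was at 19.2 CPM (-0.79 [-1.26 to -0.32]). Both HFHS libraries were thus lower than the SC library, in a gene with 77, 73 and 85 UMIs in the 5-day, 15-day and SC libraries. In the cluster led by Pla2g7 it was at 19.5, 17.9 and 36.3 CPM, and in the cluster led by Gm3764 at 23.8, 19.6 and 30.2 CPM.

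Other members stood higher in 5-day astrocyte-like cells without passing the size rule. Etfb was at 157 CPM in the 5-day and 108 CPM in the SC library (0.54 [0.33 to 0.75]), Hadhb at 158 and 111 CPM (0.52 [0.31 to 0.73]) and Acadl at 116 and 83.6 CPM (0.47 [0.23 to 0.72]). Ucp2 was at 185 and 134 CPM (0.47 [0.28 to 0.66]) and Hadh at 55.6 and 41.0 CPM (0.44 [0.10 to 0.79]). By cluster, Etfb was at 174 CPM in the 5-day and 123 CPM in the SC library in the cluster led by Pla2g7, and at 71.3 and 82.6 CPM in the cluster led by Gm3764, the other way. Hadhb, Acadl, Ucp2 and Hadh were higher in the 5-day library in both clusters, with Hadhb at 170 and 140 CPM in the first and 113 and 71.9 CPM in the second. Of the synthetase genes that are highest in these cells, Acsl3 had a log2 ratio of 0.00 [-0.05 to 0.06] and Acsbg1 one of 0.18 [0.07 to 0.29]. Respiratory chain genes moved the same way in the same cells, with 31 of 32 above 1 and a median of 0.36. Of the 52 other fatty acid and ketone genes, 24 of 41 measured were above 1, and Scp2, Aacs and Angptl4 were past the size rule as higher.

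At 15 days the difference in astrocyte-like cells was smaller. Of 32 measured members 20 were above 1 and 12 below, while 52.1% of all genes were above 1. The median log2 ratio was 0.05, against 0.01 over all genes, and the ratio of the sums was 0.03 [-0.01 to 0.06]. Ppard was the 1 member past the size rule, and 1.79% of all genes were past it as higher and 1.42% as lower. The 5-day and the 15-day ratios were not compared by a test.

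In tanycyte-like cells the members stood lower in the 15-day library. There 24 of 32 measured members were below 1 and 8 above, with a median log2 ratio of -0.18 against -0.04 over all genes. Of all measured genes, 43.4% were above 1. The sum of the members had a log2 ratio of -0.20 [-0.24 to -0.17]. Acadvl was past the size rule, at 60.05 CPM in the 15-day and 91.6 CPM in the SC library (-0.61 [-0.79 to -0.43]), as were 1.8% of all genes in that direction, and no member was past it as higher, as 2.48% of all genes were. Thinned to 1000 UMIs per cell, its log2 ratio was -0.37. Etfdh was at 17.7 CPM in the 15-day and 26.0 CPM in the SC library (-0.55 [-0.90 to -0.21]), Cpt2 at 12.3 and 17.8 CPM (-0.53 [-0.95 to -0.12]) and Oxct1 at 106 and 149 CPM (-0.48 [-0.62 to -0.34]). Among the members above 1, Cpt1a had a log2 ratio of 0.17 [-0.14 to 0.46] and Acsl1 one of 0.37 [0.03 to 0.71]. Respiratory chain genes had a median of -0.06 in these cells, while their sum had a log2 ratio of 0.04 [0.02 to 0.05]. The median depth of the class was 8830 UMIs per cell in the 15-day and 14350.5 in the SC library. With cells thinned to 1000 UMIs the log2 ratio of the summed members was -0.15. In the 5-day library 19 members were above 1 and 13 below, and 52.7% of all genes were above 1. The ratio of the sums was 0.01 [-0.02 to 0.04]. No member was past the size rule, which 1.18% of all genes passed as higher and 0.6% as lower. The cluster led by Rspo3, Tgfb2 and Necab2 stayed unnamed, and was named tanycyte-like with all variable genes. It had 2306 CPM of the members in the 15-day and 2455 CPM in the SC library. In those libraries its Acadvl was at 75.5 and 85.6 CPM and its Etfdh at 19.6 and 22.7 CPM. Its Cpt2 was at 14.17 and 14.19 CPM and its Oxct1 at 159 and 182 CPM.

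In endothelial-like cells no member was past the size rule at either time. Of all genes, 1.69% were past it as higher and 0.89% as lower at 5 days, and 3.59% and 2.84% at 15 days. The 28 measured members split into 18 above 1 and 10 below at 5 days and 9 above and 19 below at 15 days, with medians of 0.05 and -0.08. Over all genes the medians were -0.00 and -0.05, and 49.7% and 43.5% had a ratio above 1. The ratios of the summed members were 0.05 [0.00 to 0.09] and -0.05 [-0.10 to 0.00]. The summed markers of red blood cells in this class were at 1764 CPM in the 5-day, 872 CPM in the 15-day and 823 CPM in the SC library, and their part in the ratios was not tested. Acsl3 was at 81.3 and 87.4 CPM in the 5-day and 15-day libraries and 62.5 CPM in the SC library. Both log2 ratios, 0.38 [0.13 to 0.63] and 0.48 [0.20 to 0.77], had intervals above 0. Acsl3 in endothelial-like cells stood at 4.66%, 5.22% and 3.58% of its astrocyte-like level in the 5-day, 15-day and SC libraries, and the astrocyte markers at 1.79%, 1.84% and 1.3%, lower in SC for both. Their part in the ratio was not tested.

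In neuron-like cells 15 of 31 measured members were above 1 and 16 below at 5 days, and 13 above and 18 below at 15 days. The medians were -0.00 and -0.05, against -0.15 and -0.19 over all genes, of which 33.9% and 33.4% were above 1. The ratios of the sums were 0.07 [0.02 to 0.12] and -0.00 [-0.06 to 0.06]. Other values moved with the libraries of this class. Oligodendrocyte markers were at 882, 888 and 1953 CPM in the 5-day, 15-day and SC libraries, microglia markers at 85.6, 94.8 and 214 CPM and the neuron markers at 22724, 22107 and 26744 CPM, and the mitochondrial shares were those given above. Their part in the ratios of this class was not tested.

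Ucp2 had the largest positive ratio among the members in neuron-like cells at both times. It was at 131 CPM in the 5-day and 117 CPM in the 15-day library, against 75.3 CPM in the SC library (log2 ratios 0.80 [0.60 to 1.00] and 0.64 [0.42 to 0.85]). The clusters of the class differed in Ucp2 and in number. The cluster led by Agrp, Npy and Otp, genes of the hunger neurons, was at 220, 192 and 247 CPM and held 32, 32 and 6 cells in the 5-day, 15-day and SC libraries. The cluster led by Cartpt, Gal and Pomc was at 145, 117 and 93.2 CPM, and the largest cluster, led by Snhg11, Meg3 and Rasgrf2, at 59.6, 71.2 and 56.5 CPM. With a fixed mix of clusters the log2 ratios were 0.38 at 5 days and 0.34 at 15 days, both below the size rule, and with cells thinned to 1000 UMIs they were 0.47 and -0.17.

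Eci2 and Etfb were also higher past the size rule in 5-day neuron-like cells, so 3 members passed it as higher and none as lower, while 2.98% of all genes were past it as higher and 7.27% as lower. Eci2 was at 48.2 CPM in the 5-day and 29.0 CPM in the SC library (0.73) and Etfb at 78.0 and 50.9 CPM (0.62). With a fixed mix of clusters their log2 ratios were 0.37 and 0.08, and in thinned cells 0.11 and 1.2. At 15 days Crat (13.5 CPM in the 15-day and 26.5 CPM in the SC library), Crot (12.2 and 21.7 CPM) and Acsbg1 (4.42 and 8.21 CPM) were lower past the rule. At that time 4.8% of all genes were past it as higher and 16.3% as lower, and the median of all genes was -0.19, so lower calls were common in this class. Acsbg1 rests on 16 and 36 UMIs, at the low share of its astrocyte-like level given above. Its log2 ratio was 0.95 in thinned cells, where that of Crot was -0.05. With at most 10% mitochondrial UMIs the log2 ratio of Crat was -1.58, against -0.97 in all cells. Respiratory chain genes were above 1 for 31 of 32 at both times (medians 0.47 and 0.59).

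**Figure D4:**
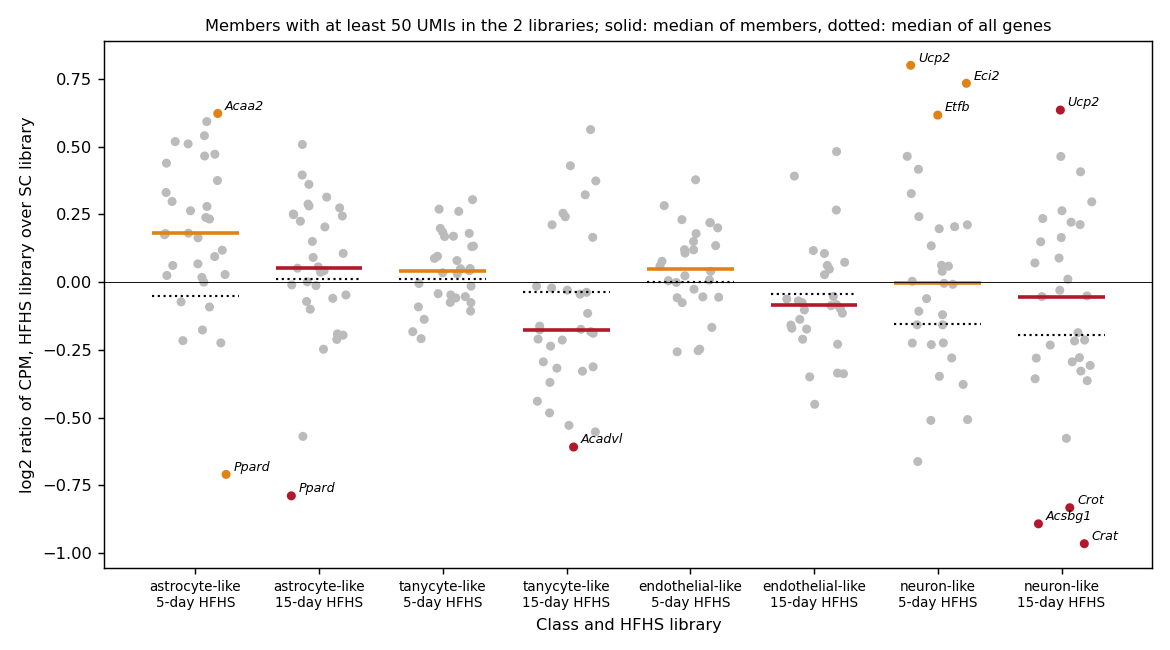
Log2 ratio of CPM of each HFHS library over the SC library for the members measured in 4 classes; points are genes, coloured and named when past the size rule, solid bars are medians of the members and dotted bars medians of all measured genes. In 5-day astrocyte-like cells most points lie above 0 (27 of 33), and in 15-day tanycyte-like cells most lie below it (24 of 32). Of all measured genes, 43.9% and 43.4% were above 0 in these 2 comparisons.

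In the other 5 classes few members were past the size rule. Acsl5 was higher at 5 days in OPC-like (26.5 CPM in the 5-day and 16.2 CPM in the SC library) and ependymal-like cells (9.03 and 4.89 CPM), where 0.98% and 1.24% of all genes were past the rule as higher and 1.41% and 1.11% as lower. Red blood cell markers in OPC-like cells were at 3329.6 CPM in the 5-day and 19.4 CPM in the SC library, and their part in the Acsl5 ratio was not tested. At 15 days 27 of 30 measured members were below 1 in ependymal-like cells, where 46.6% of all genes were above 1. The median was -0.10, against -0.02 over all genes. Acaa1a (83.0 CPM in the 15-day and 125 CPM in the SC library) and Etfdh (8.68 and 16.9 CPM) were lower past the rule. So were 2.05% of all genes, while 2.17% were past it as higher. In thinned cells the log2 ratio of Etfdh was -0.05. Microglia-like cells had 21 of 27 members below 1 at 15 days (median -0.13, against -0.06), where 40.4% of all genes were above 1. No member was past the rule at either time in this class. Of all genes, 1.33% and 1.32% were past it as higher and lower at 5 days and 1.91% and 3.07% at 15 days.

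In oligodendrocyte-like cells Ppard was higher at 15 days, at 23.7 CPM against 14.7 CPM in the SC library, and 14.3% of its 15-day UMIs came from 1 cell; 2.26% of all genes were past the rule as higher and 1.75% as lower. Red blood cell markers in this class were at 299.6 CPM in the 15-day and 11.2 CPM in the SC library, and their part in the Ppard ratio was not tested. At 5 days Ucp2 (6.74 CPM in the 5-day and 2.80 CPM in the SC library) was higher and Acsl6 (2.55 and 5.21 CPM) lower past the rule, as were 1.13% and 1.72% of all genes. Acsl6 was highest in astrocyte-like cells. Summed astrocyte markers were at 417 CPM in 5-day and 441 CPM in SC oligodendrocyte-like cells, against 30843 and 28914 CPM in astrocyte-like cells. Their part in the Acsl6 ratio was not tested. In cells thinned to 1000 UMIs the Ucp2 ratio turned to -1.25 on the log2 scale, and that of Ppard was 1.43. Pericyte-like cells, the smallest class, had Acaa2 higher at 5 days (183 CPM in the 5-day and 106 CPM in the SC library) and Acadvl lower at 15 days (46.7 and 92.9 CPM), where 1.46% of all genes were higher and 2.33% lower past the rule at 5 days, and 2.6% and 4.68% at 15 days. In thinned cells the log2 ratio of Acaa2 was 1.69, against 0.79 in all cells. Red blood cell markers of the class were at 134 CPM in the 5-day, 40.05 CPM in the 15-day and 27.3 CPM in the SC library, and their part was not tested. Acaa2 passed the rule as higher at 5 days in astrocyte-like and pericyte-like cells, and Acadvl as lower at 15 days in tanycyte-like and pericyte-like cells. The classes come from the same 3 libraries, so calls in 2 classes are not replicates. In pericyte-like cells the 35 members together had 1199, 721 and 1331 UMIs in the 5-day, 15-day and SC libraries. In OPC-like cells no member was past the rule at 15 days, when 9 of 26 measured members were above 1 and 17 below (median -0.05, against -0.06 over all genes, of which 41.6% were above 1) and 2.22% of all genes were past it as higher and 3.89% as lower.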

How the data were processed

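Libraries came from a 10x Genomics 3' droplet kit, per the labels' protocols. The deposited matrices hold raw UMI counts in whole numbers. Per the submitters' processing notes the authors used Cell Ranger on GRCm38, SAMtools and Scanpy 1.4.4, with software version 3.1.0 named in the matrix headers. The 5-day, 15-day and SC libraries held 6204, 7823 and 7116 barcodes with 52735770, 43193012 and 59315940 UMIs.

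Kept were barcodes with 500 or more genes and no more than 20% mitochondrial UMIs. Because Scrublet's automatic call marked only 1.27%, 1.53% and 0% of barcodes, the highest doublet scores were taken out at 0.8% per 1000 barcodes (211, 344 and 291). Scaling was to 10000 UMIs per cell on a log scale. Clustering used 3000 variable genes without the 35 genes (2 of which would have been among them), 40 principal components, 15 neighbours and Leiden resolution 1, with seed 0, in Scanpy 1.11.5. A cluster was named when 3 or more markers of 1 of 15 sets were among its 50 leading genes. It stayed unnamed where another set had as many in the top 10, where 1 library gave over 90% of the cells, or where it was shallow and lacked its own markers in the top 10. Names went to 26 of 32 clusters.

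UMIs were summed per class and library. Pairs of classes were tested with edgeR 4.0.16 (TMM, filterByExpr, quasi-likelihood test, library as block, 6 sums per pair), with DESeq2 1.42.0 as an alternative, in R 4.3.3. Diet ratios had exact conditional binomial intervals and levels exact Poisson ones, at 95%, from SciPy 1.17.1. Both procedures were tested on simulated data. A count of 0 was read as allowing up to 3 counts. All 35 genes are described, and of 52 other genes the 2 highest and 2 lowest called per class pair are named, except 1 that is not reported here. The members and lists were chosen with earlier results of these data known. Of 31253 gene identifiers 31184 were in GENCODE M21. Which annotation the counting used is not given in the sources used here.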

Additional observations from a re-analysis of the deposited data

Results flagged for a closer look

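Ppard stood out because its 15-day ratio went opposite ways in 2 classes. The log2 ratio of the 15-day HFHS over the SC library was 0.69 in oligodendrocyte-like cells and -0.79 in astrocyte-like cells, and both passed the size rule. The difference between the classes was not tested, since each diet had 1 library. Of the oligodendrocyte-like UMIs, 14.3% of the 15-day and 2.73% of the SC ones came from 1 cell, while in astrocyte-like cells these shares were 2.74% and 3.53%. Red blood cell markers of the oligodendrocyte-like cells were at 299.6 CPM in the 15-day and 11.2 CPM in the SC library, and their part in the ratio was not tested.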

How the results depend on the processing

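All 12 counts of members called per class pair stayed within 1.5 times their main value with DESeq2, no filter, 1 fit of the 4 classes, other cell filters, all variable genes, without shared barcodes (an alternative chosen after seeing the data) and without each library. Leaving out a library gave 29 to 30 higher and 4 lower for astrocyte-like over neuron-like, 23 to 24 and 6 to 7 for tanycyte-like over neuron-like, 22 to 23 and 7 for endothelial-like over neuron-like, 7 to 9 and 15 to 19 for tanycyte-like over astrocyte-like, 12 and 12 to 13 for endothelial-like over astrocyte-like and 12 to 14 and 10 to 14 for endothelial-like over tanycyte-like cells. Of the 34, 30, 29, 27, 27 and 27 calls for astrocyte-like, tanycyte-like and endothelial-like over neuron-like, tanycyte-like and endothelial-like over astrocyte-like and endothelial-like over tanycyte-like cells, 33, 27, 29, 22, 21 and 21 held in every alternative. The calls lost in any were Oxct1 in the first pair, Acsbg1, Crat and Hadha in the second, Acadvl, Decr1, Etfdh, Hadh and Hadhb in the fourth, Acaa1a, Acat1, Cpt1a, Decr1, Etfdh and Ppara in the fifth, and Acadvl, Acat1, Acsbg1, Acsl1, Hadhb and Ppargc1a in the sixth. Calls gained in any were Acat1 in the first pair, Acat1 and Oxct1 in the second and Acsl3 and Crat in the third. Acat1 and Cpt2 were gained in the fourth and Eci1 in the fifth.

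The log2 ratio of the summed members, in all cells 0.12 and 0.03 in 5-day and 15-day astrocyte-like, 0.01 and -0.20 in tanycyte-like, 0.05 and -0.05 in endothelial-like and 0.07 and -0.00 in neuron-like cells, moved as follows. With TMM scaling it was 0.20 in 5-day astrocyte-like and 0.24 and 0.21 in 5-day and 15-day neuron-like cells, where TMM brought the all-gene medians near 0. With equal weight per cell it was 0.065 in astrocyte-like, -0.15 in tanycyte-like, -0.12 in endothelial-like and 0.085 in neuron-like cells at 15 days. In cells thinned to 1000 UMIs it was 0.16 and 0.080 in 5-day and 15-day astrocyte-like, 0.053 and -0.15 in 5-day and 15-day tanycyte-like and 0.099 in 5-day endothelial-like cells. With at most 10% mitochondrial UMIs it was -0.0086 in 15-day astrocyte-like and 0.0075 in 5-day neuron-like cells. It was -0.17 in 15-day tanycyte-like cells with all variable genes, 0.12 in 5-day neuron-like cells without shared barcodes and 0.043 in 5-day astrocyte-like cells with a fixed mix of clusters. Single ratios changed sign for Acsbg1 at 15 days in neuron-like cells (0.64 with equal weight, 0.95 thinned), for Ucp2 at 15 days in neuron-like cells (-0.17 thinned) and for Ucp2 at 5 days in oligodendrocyte-like cells (-1.25 thinned). The cause was not tested. No paired analysis was possible because each diet had 1 library. Members under about 10 CPM rest on few UMIs, and their ratios are limited by depth.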
